A study of Mus musculus with 60 samples.

Results

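The genes described are the heat shock proteins and DnaJ cochaperones of the mouse, taken by gene name from the protein-coding genes of the deposited table: names that start with Hspa, Hspb, Hspd, Hspe, Hsph or Hsp90, and names that start with Dnaja, Dnajb or Dnajc, each followed by a number or letter of the family. The rule found 74 genes among 55414 in the table, of which 21884 were protein-coding. They were 13 Hspa, 9 Hspb, 3 Hspd and Hspe, 1 Hsph, 3 Hsp90, 4 Dnaja, 13 Dnajb and 28 Dnajc genes. Hspb11 and Hspbap1 were taken by the rule on names and are not small heat shock chaperones.

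The measurements were RNA-seq libraries made from mPFC, the medial prefrontal cortex. The mice were of the inbred DBA2/J strain and carried GFP-L10a, in which the green fluorescent protein is fused to a protein of the large ribosomal subunit. In the IP libraries, RNA came from an immunoprecipitation with an antibody against GFP, and the labels give the cell type as aPVT projector. The Input libraries were made from the mPFC without that antibody. Each fraction held 5 groups of 6 libraries, 60 in all, labelled SA, SA:ANH, ANH, RES and NS. The labels do not spell out these abbreviations, and the series text says that DBA mice went through 5 days of social defeat stress without saying which of the groups did. Age, sex, the promoter that drives the tagged protein and whether replicates are separate animals are not stated in the labels, so p-values measure the spread between libraries, which may be technical.

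Library totals ran between 19078928 and 27073456 counts, and no pair of libraries of a group agreed within sampling noise. Excitatory neuron markers summed to between 3058 and 4450 CPM (counts scaled so that library totals match) in IP libraries and between 2805 and 3198 CPM in Input libraries. Inhibitory neuron markers summed to between 66.96 and 181.5 CPM in IP and between 1149 and 1347 CPM in Input, and endothelial and mural cell markers to between 8.056 and 20.99 CPM in IP and between 203 and 229.2 CPM in Input. Oligodendrocyte markers in IP differed between groups: their sum was 215.5 to 236.2 CPM in SA, 151.6 to 183.4 CPM in SA:ANH, 702 to 736.6 CPM in ANH, 1029 to 1146 CPM in RES and 259.2 to 309.8 CPM in NS. Inhibitory neuron markers in IP summed to 66.96 to 80.57 CPM in SA, 99.13 to 118.1 CPM in SA:ANH, 151.8 to 173.4 CPM in ANH, 156.1 to 181.5 CPM in RES and 88.31 to 114.8 CPM in NS. Excitatory neuron markers in IP lay below NS (3974 to 4450 CPM) in all libraries of SA (3058 to 3444 CPM) and of SA:ANH (3381 to 3926 CPM), and astrocyte markers in all of SA (275.1 to 311.8 CPM in SA, 348.8 to 373.6 CPM in NS). Red blood cell markers in IP summed to 38.23 to 50.93 CPM in SA, 41.97 to 51.77 CPM in SA:ANH, 23.22 to 27.27 CPM in ANH, 22.3 to 34.9 CPM in RES and 14.41 to 23.24 CPM in NS. The part of these differences in the results below was not tested. In bulk libraries, fewer cells of a type and less RNA per cell cannot be told apart.

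Heat shock proteins are molecular chaperones. HSP70 proteins (Hspa genes) bind exposed stretches of unfolded protein and release them in a cycle driven by ATP. DnaJ proteins, also called HSP40 or J-domain proteins, deliver clients and stimulate the HSP70 ATPase, and HSP110 proteins (Hsph1, Hspa4, Hspa4l) exchange the nucleotide. HSP90 proteins act later, on kinases and steroid receptors among others, while HSP60 with HSP10 forms the mitochondrial chaperonin. Heat and unfolded protein activate the transcription factor HSF1, which binds arrays of the unit NGAAN, and neurons are known for a weak heat shock response.

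Promoters of members were read to show which carry such arrays. A RefSeq promoter, from 250 bases before to 50 after the gene start in GRCm38.p6, was matched by symbol for 59 of the 74 genes. The 3-unit element (TTC NN GAA NN TTC or GAA NN TTC NN GAA, one being the other read on the opposite strand) was in a promoter of 4 of these 59 genes (6.78%), against 0.662% of the 27025 genes in the promoter table. These 4 were Dnajb6, Hspd1, Hspe1 and Hsph1. Hsp90aa1, Hsp90ab1, Hspa8 and Hspa9 were among the members with no promoter matched, so theirs were not read. The 2-unit element (TTC NN GAA or GAA NN TTC, each the same on both strands, and part of the longer one) was in 16 of 59 genes (27.1%), against 17% of all genes. A match is a run of letters and not a measured binding site. The 4 promoters below belong to genes whose levels differed between groups, and capitals mark every 2-unit match, overlapping matches run together. They lie at chr17:34972107-34972406 on the minus strand (Hspa1a), chr17:34959189-34959488 on the minus strand (Hspa1b), chr1:55087898-55088197 on the plus strand (Hspe1) and chr5:149636266-149636565 on the minus strand (Hsph1), each written 5′ to 3′ along its gene.
Hspa1a promoter: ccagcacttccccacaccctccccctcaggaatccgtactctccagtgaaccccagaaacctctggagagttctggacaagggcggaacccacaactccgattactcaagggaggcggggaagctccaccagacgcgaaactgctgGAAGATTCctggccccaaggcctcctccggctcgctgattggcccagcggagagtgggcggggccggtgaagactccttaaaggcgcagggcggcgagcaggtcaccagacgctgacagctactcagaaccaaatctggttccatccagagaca
Hspa1b promoter: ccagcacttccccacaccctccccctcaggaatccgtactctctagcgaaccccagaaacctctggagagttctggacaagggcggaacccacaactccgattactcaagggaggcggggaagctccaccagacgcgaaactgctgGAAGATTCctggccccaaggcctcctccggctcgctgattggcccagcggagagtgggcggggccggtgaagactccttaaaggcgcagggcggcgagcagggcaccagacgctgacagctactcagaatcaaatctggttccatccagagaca
Hspe1 promoter: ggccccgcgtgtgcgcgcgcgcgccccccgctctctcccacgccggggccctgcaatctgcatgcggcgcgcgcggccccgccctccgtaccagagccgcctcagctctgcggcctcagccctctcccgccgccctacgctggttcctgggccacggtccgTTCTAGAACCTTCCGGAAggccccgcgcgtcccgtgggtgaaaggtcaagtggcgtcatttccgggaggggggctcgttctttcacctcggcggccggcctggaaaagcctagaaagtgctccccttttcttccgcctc
Hsph1 promoter: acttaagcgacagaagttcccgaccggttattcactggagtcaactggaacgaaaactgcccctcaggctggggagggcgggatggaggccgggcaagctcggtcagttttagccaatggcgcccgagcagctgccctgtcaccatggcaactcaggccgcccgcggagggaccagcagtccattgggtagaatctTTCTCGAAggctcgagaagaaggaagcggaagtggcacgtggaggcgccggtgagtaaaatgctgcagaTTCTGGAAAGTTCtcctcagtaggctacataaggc
The promoters of Hspa1a and Hspa1b, the stress-inducible HSP70 pair, were the same at 296 of 300 bases, with 1 match each that starts 104 bases before the gene start. Because the coding sequences of this pair are also near-identical, reads may be split between them and each gene's own value is uncertain. Hspe1 and Hspd1, the HSP10 and HSP60 genes, lie head to head, and 285 bases of the Hspe1 window are also in a promoter window of Hspd1, so both carry the same run of capitals. In Hsph1 the 3-unit match starts 15 bases after the gene start.

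The 74 genes took 1.11% to 1.25% of all counts in IP libraries and 0.923% to 0.992% in Input libraries. Of their counts, 52.3% in IP and 51.6% in Input came from Hsp90ab1, Hspa8 and Hsp90aa1. Per kilobase of the deposited gene length, Hsp90ab1, the constitutive cytosolic HSP90, stood highest with means of 1008 CPM per kb in IP and 922 CPM per kb in Input. Hspa8, the constitutive HSP70 that also strips clathrin from vesicles, followed with 609 CPM per kb in IP and 616 CPM per kb in Input. Hsp90aa1, the inducible cytosolic HSP90, had 532 CPM per kb in IP and 191 CPM per kb in Input. Every other member was at or below 114 CPM per kb in IP, the value of Dnajc7. At the low end, Dnajc5g had 0 counts in all 60 libraries, Dnajb8 had 1, Dnajc22 had 23, Dnajc5b had 51, Hspb9 had 65 and Dnajb7 had 68. These 6 were too low to test in either fraction and Hspb2 was too low in IP, which left 67 genes tested in IP, 68 in Input and 68 in the fit of both.

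In the IP libraries against Input, 36 of 68 members were higher and 15 were lower (75%), beside 75.4% of all 18937 genes tested, of which 32.8% were higher and 42.6% lower. In 19 of the 68 members the libraries of the fractions did not overlap at all, beside 14.3% of all genes. The median log2 fold change was 0.12 over members and -0.08 over all genes. Tests here and below are quasi-likelihood tests of edgeR, with p-values adjusted over all genes by the Benjamini-Hochberg method and a threshold of 0.05. Hsp90aa1 had the largest rise. It had a lowest, median and highest value of 1519, 1687 and 2171 CPM over 30 IP libraries, against 554.6, 632 and 696.6 CPM over 30 Input libraries. No library of one fraction reached the other, and the log2 fold change was 1.48 ± 0.02 (SE, adjusted p = 3.83e-60). The other cytosolic HSP90, Hsp90ab1, ranged over 2294 to 2761 CPM in IP and 2103 to 2537 CPM in Input, ranges that overlap, with a log2 fold change of 0.13 ± 0.01 (SE, adjusted p = 3.18e-15).

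**Figure D1:**
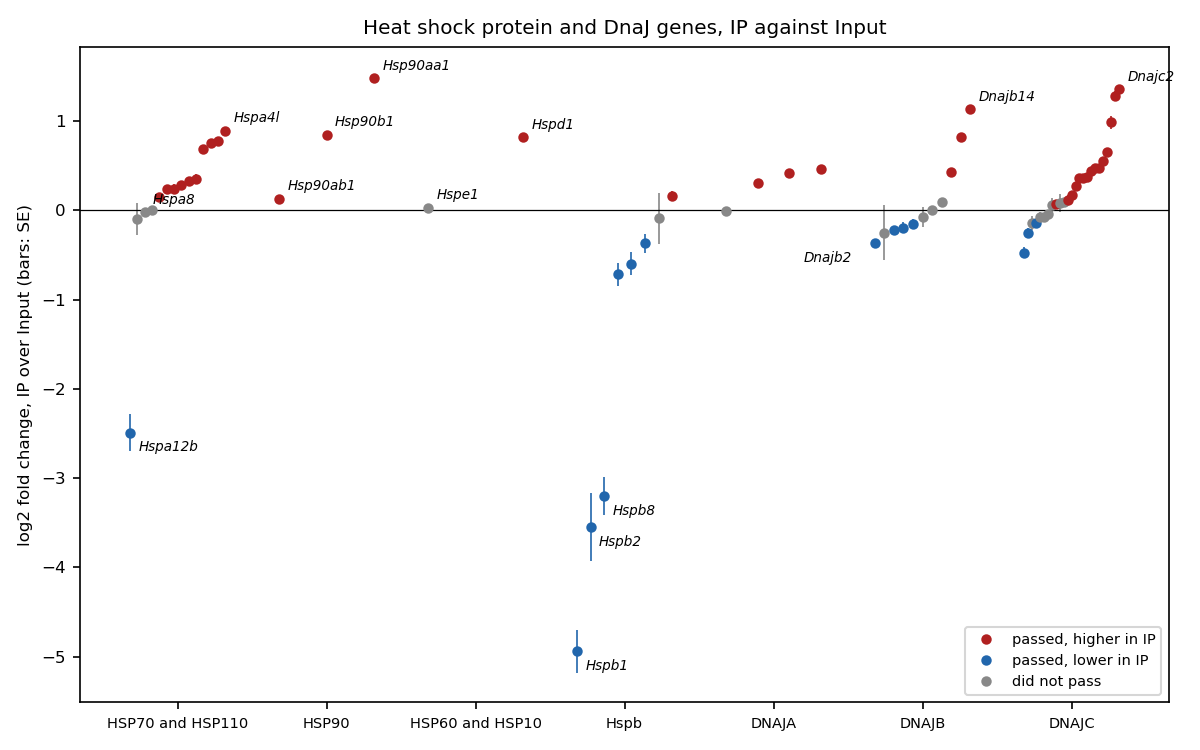
Log2 fold change of IP over Input for 67 of the 68 tested genes, grouped along the horizontal axis by family and ordered by value within it, with the vertical axis in log2 units and bars for the SE. Hsp90aa1 stands highest at 1.48 and Hspb1 lowest at -4.94, and the DNAJA genes lie between -0.01 and 0.46.

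After Hsp90aa1, the largest rises were those of 3 DnaJ genes. Dnajc2, a ribosome-associated DnaJ, had 27.93 to 52.93 CPM in IP and 10.16 to 19.38 CPM in Input (log2 fold change 1.36 ± 0.05 SE). Dnajc21, which acts in maturation of the large ribosomal subunit, had 21.16 to 42.6 CPM in IP and 6.969 to 15.85 CPM in Input (1.28 ± 0.05). Dnajb14, in the ER membrane, was higher by 1.13 ± 0.03 and Dnajc13, an endosomal DnaJ, by 0.98 ± 0.07. In each of these 4 the IP libraries all lay above the Input libraries. Hspa4l, an HSP110, was higher by 0.89 ± 0.03, Hsp90b1, the HSP90 of the ER, by 0.85 ± 0.02, Hspd1 by 0.82 ± 0.02, Dnajb4 by 0.82 ± 0.04 and Hspa13 by 0.77 ± 0.03 (adjusted p of 1.14e-25 or smaller in each). Among chaperones of other compartments, Hspa9, the HSP70 of mitochondria, was at 0.01 ± 0.02 and Hspe1 at 0.03 ± 0.03, and neither passed. Hspa8 was at -0.02 ± 0.02 (adjusted p = 0.254). With DESeq2's size factors in the same test Hspa8 was lower at -0.07 (adjusted p = 0.000201), and the small rise of Dnajc5, 0.07 with TMM scaling, was 0.03 and did not pass.

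The small heat shock proteins were on the low side. Of the members named Hspb, Hspb1, Hspb2, Hspb3, Hspb6 and Hspb8 fell, with Hspbap1 (those of them under 10 CPM are named after their values were seen), while Hspb11 rose by 0.16 ± 0.06 and Hspb7 was at -0.09 ± 0.29 and did not pass. Hspb1 (HSP27) had 0 to 1.017 CPM in IP, median 0.214, and 4.567 to 12.33 CPM in Input, median 9.078, which gives a log2 fold change of -4.94 ± 0.24 (adjusted p = 2.22e-27). Hspb8 (HSP22) had 0 to 1.877 CPM in IP and 2.154 to 7.666 CPM in Input (log2 fold change -3.20 ± 0.21). For both genes every IP library lay below every Input library. Hspb2 at -3.55 ± 0.38 and Hspa12b, an atypical HSP70 known from endothelium, at -2.49 ± 0.20 were low in both fractions and are named after their values were seen. The gene body of Hspb2 overlaps with Cryab on the opposite strand, so its low counts are uncertain. Microglial markers summed to 27.12 to 43.03 CPM in IP and 656.9 to 768.1 CPM in Input, and astrocyte markers to 275.1 to 393 CPM in IP and 2955 to 3262 CPM in Input, and the part of these cells in the low Hspb values was not tested. Among members with a mean of 10 CPM or more in IP or Input the falls were small. Dnajb2, known for a neuronal form, was at -0.37 ± 0.03 and Dnajc12 at -0.25 ± 0.05. Dnajb1, the main heat-inducible DnaJ, was at -0.22 ± 0.02 and Dnajb9, induced by the unfolded protein response, at -0.20 ± 0.06. Dnajb9 was close to that limit, with a median of 10.03 CPM in Input, so its level there was near that of Hspb1.

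Each subtype was then set against NS within the IP fraction. In SA, 7 of 67 members were higher and 9 lower (23.9%), beside 16.6% of all 16670 genes tested, of which 9.39% were higher and 7.2% lower. In SA:ANH, 10 were higher and 8 lower (26.9%), beside 19.7% of all genes, 11.3% higher and 8.45% lower. In ANH, 1 was higher and 9 lower (14.9%), beside 7.4% of all genes, 3.02% higher and 4.37% lower. In RES, 1 was higher and 4 lower (7.46%), beside 4.36% of all genes, 2.25% higher and 2.11% lower. The libraries of the subtype and of NS did not overlap for 8 of 67 members in SA, beside 8.58% of all genes. It was 11 of 67 in SA:ANH (beside 10.7%), 5 of 67 in ANH (beside 4.03%) and 3 of 67 in RES (beside 3.02%). The members' median log2 fold change lay close to that of all genes in each comparison, at -0.02 in SA, -0.03 in SA:ANH, -0.06 in ANH and -0.02 in RES, while over all genes it was 0.02 in SA, 0.01 in SA:ANH, -0.00 in ANH and 0.01 in RES. In the test of any difference among the 5 groups, 27 of 67 passed (40.3%), beside 33.1% of all genes. All 4 comparisons share the 6 NS libraries, so their values are given side by side and not counted as repeats of each other.

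**Figure D2:**
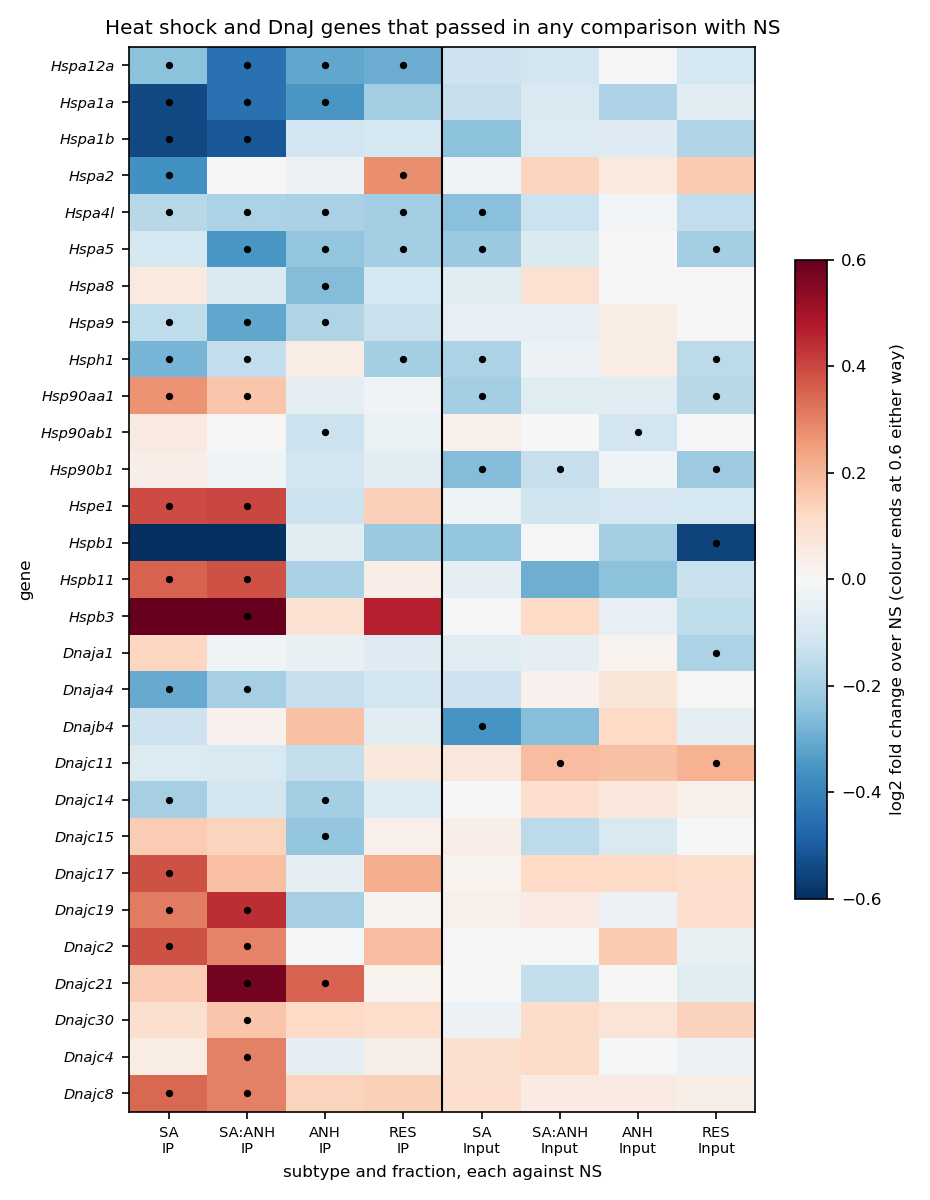
Log2 fold change over NS, as colour, for 29 of the 30 genes that passed in at least 1 of the 8 comparisons of a subtype with NS, with the 4 subtypes in IP left of the line and in Input right of it; a dot marks an adjusted p under 0.05. Hspa1a, Hspa1b and Hspa12a are blue across IP, Hspe1, Dnajc19 and Dnajc8 are red in SA and SA:ANH in IP, and Hsp90aa1 is red in those columns and blue in SA and RES in Input.

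Among the HSP90 genes in IP, Hsp90aa1 rose in SA and SA:ANH. Its lowest, median and highest values were 1877, 1971 and 2059 CPM in SA, 1691, 1805 and 2128 CPM in SA:ANH, 1484, 1562 and 1684 CPM in ANH, 1525, 1622 and 1667 CPM in RES, and 1583, 1637 and 1685 CPM in NS. All libraries of SA and of SA:ANH lay above all of NS, and ANH and RES overlapped with NS. The log2 fold change was 0.27 ± 0.04 in SA (SE, adjusted p = 2.54e-06) and 0.17 ± 0.04 in SA:ANH (adjusted p = 0.00122), against -0.05 ± 0.04 in ANH and -0.02 ± 0.04 in RES, which did not pass. Without SA:ANH replicate 6, the highest library of its group, the value in SA:ANH was 0.11 ± 0.03 (adjusted p = 0.0106). Hsp90ab1 fell in ANH, to 2257 to 2390 CPM, against 2477 to 2622 CPM in NS (-0.13 ± 0.03, adjusted p = 0.00129), and its other comparisons with NS did not pass. Hsp90b1 passed in none of the 4 with this test, and its lowest log2 fold change was -0.11 ± 0.04 in ANH (adjusted p = 0.069).

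The stress-inducible HSP70 pair was lower in SA and SA:ANH. Hspa1a had lowest, median and highest values of 19.61, 23.89 and 31.4 CPM in SA, 18.98, 26.75 and 30.27 CPM in SA:ANH, 24.85, 26.36 and 30.89 CPM in ANH, 27.98, 29.25 and 34.94 CPM in RES, and 31.87, 34.99 and 38.07 CPM in NS. The libraries of SA, SA:ANH and ANH all lay below those of NS. The log2 fold change was -0.54 ± 0.11 in SA (adjusted p = 0.000431), -0.45 ± 0.11 in SA:ANH (adjusted p = 0.00239), -0.35 ± 0.11 in ANH (adjusted p = 0.0425) and -0.21 ± 0.11 in RES, which did not pass. In ANH the call ended without the filter on low counts (adjusted p = 0.0677). Hspa1b was at -0.54 ± 0.12 in SA (adjusted p = 0.00191) and -0.51 ± 0.12 in SA:ANH (adjusted p = 0.00249), against -0.11 ± 0.12 in ANH and -0.10 ± 0.12 in RES, which did not pass. Since reads may be split within the pair, their CPM were also summed, an analysis chosen after seeing the data. The sum averaged 45.5 ± 5.83 CPM in SA, 47.6 ± 6.29 CPM in SA:ANH, 56.3 ± 5.60 CPM in ANH, 59.3 ± 6.59 CPM in RES and 66.2 ± 5.73 CPM in NS (SD, n = 6 libraries each). The exact two-sided permutation test gave p = 0.00216 for SA and for SA:ANH, the smallest that 924 splits allow, 0.0152 for ANH and 0.0909 for RES. Adjusted over the 8 comparisons in both fractions these were 0.00864, 0.00864, 0.039 and 0.109. Both genes had already been called lower in SA and SA:ANH in these same libraries. The permutation p-values are therefore not independent of those calls and add no further support to them.

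**Figure D3:**
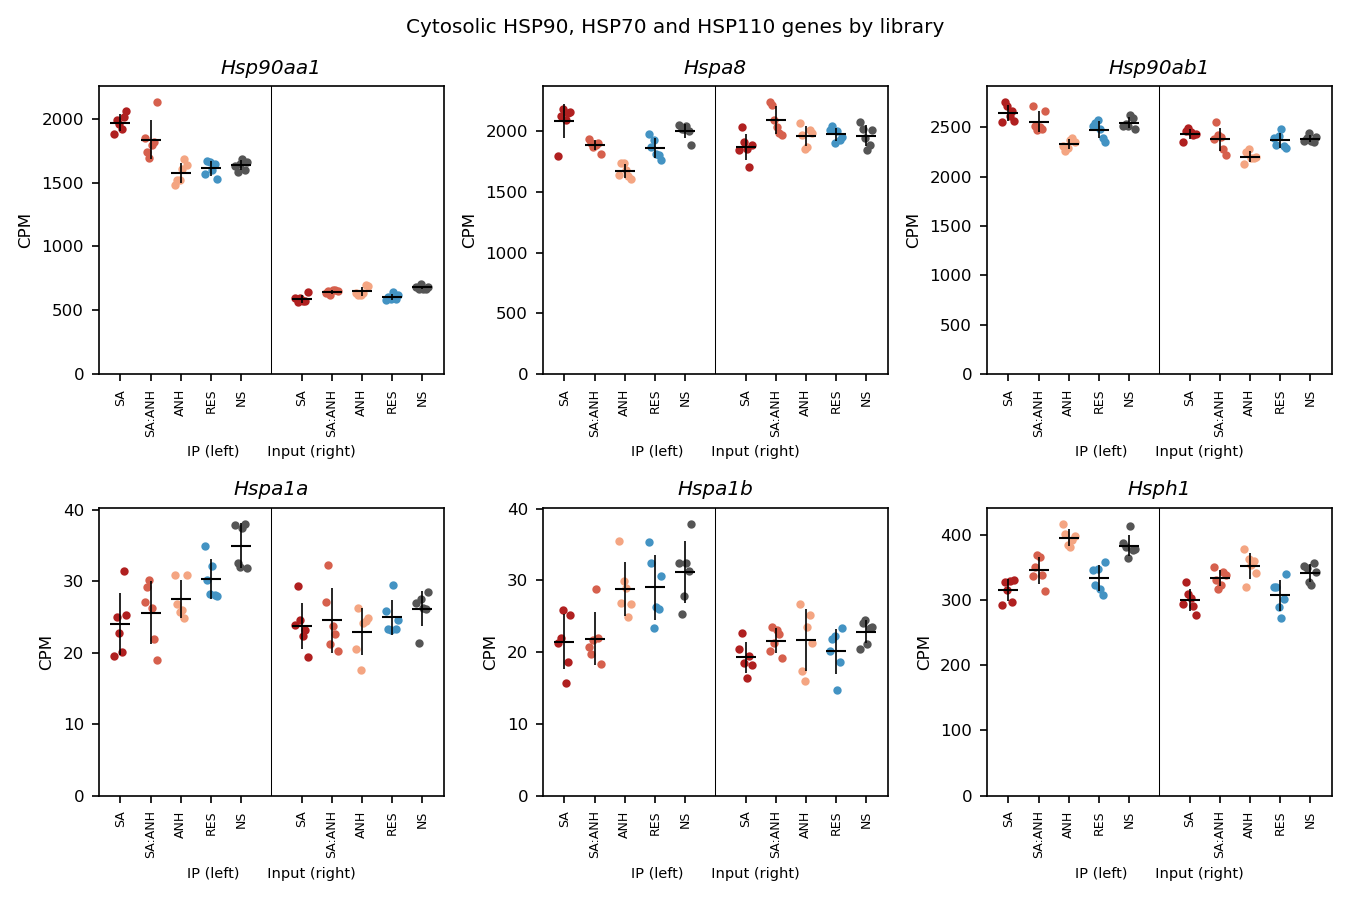
CPM in each library (points) with the mean and SD (black) for 6 cytosolic chaperone genes, with the groups SA, SA:ANH, ANH, RES and NS in IP on the left and in Input on the right of each panel, each fraction scaled by itself. In IP, Hsp90aa1 is above NS in all SA and SA:ANH libraries, Hspa8 is below NS in all ANH libraries, and Hspa1a is below NS in all SA, SA:ANH and ANH libraries.

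The constitutive HSP70 gave another order. Hspa8 had 1604, 1660 and 1739 CPM in ANH (lowest, median, highest), against 1881, 2016 and 2047 CPM in NS, with no overlap (log2 fold change -0.26 ± 0.03, adjusted p = 2.79e-06). In SA it had 1798, 2136 and 2182 CPM, which overlaps with NS (0.06 ± 0.03, adjusted p = 0.289). In SA:ANH it was at -0.09 ± 0.03 and in RES at -0.11 ± 0.03, and neither passed. When only the compared libraries were fitted, both passed as lower (adjusted p = 0.0117 in SA:ANH and 0.0233 in RES).

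Hspa2, an HSP70 best known from male germ cells, fell in SA and rose in RES. Its values were 54.66, 74.62 and 79.23 CPM in SA, 75.56, 95.31 and 102.7 CPM in SA:ANH, 77.67, 89.76 and 102.1 CPM in ANH, 99.69, 115.1 and 121.2 CPM in RES, and 81.04, 92.54 and 108.1 CPM in NS. Every SA library lay below every NS library, while RES overlapped with NS. The log2 fold change was -0.37 ± 0.08 in SA (adjusted p = 0.00144) and 0.28 ± 0.08 in RES (adjusted p = 0.0376), and SA:ANH and ANH were at 0.00 ± 0.08 and -0.04 ± 0.08. The oligodendrocyte marker sum had medians of 223.6 CPM in SA, 169.3 CPM in SA:ANH, 726.5 CPM in ANH, 1094 CPM in RES and 288.2 CPM in NS. Whether these cells have a part in the Hspa2 values was not tested. Hspa12a, an HSP70 with a divergent ATPase domain that is abundant in brain, was lower in each subtype, at -0.25 ± 0.08 in SA (adjusted p = 0.0201), -0.45 ± 0.08 in SA:ANH (2.55e-05), -0.31 ± 0.08 in ANH (0.00673) and -0.30 ± 0.08 in RES (0.016). It had 84.75 to 112.8 CPM in SA, 76.44 to 93.86 CPM in SA:ANH, 79.08 to 107.7 CPM in ANH, 83.54 to 101.3 CPM in RES and 103 to 132.8 CPM in NS, and SA:ANH and RES did not overlap with NS.

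Of the 3 HSP110 genes, Hsph1 and Hspa4l fell and Hspa4 passed in no comparison with NS in IP. Hsph1 had 292.7, 321.2 and 329.8 CPM in SA, 313.2, 344.3 and 368.9 CPM in SA:ANH, 380.9, 394.8 and 416.5 CPM in ANH, 306.7, 334.6 and 358.1 CPM in RES, and 363.5, 379.4 and 412.8 CPM in NS. SA and RES lay wholly below NS, SA:ANH overlapped with it at its upper end, and ANH was at the level of NS. The log2 fold change was -0.28 ± 0.04 in SA (adjusted p = 7.70e-06), -0.15 ± 0.04 in SA:ANH (0.0106) and -0.20 ± 0.04 in RES (0.00306), against 0.05 ± 0.04 in ANH. Hspa4l was between -0.17 and -0.21 in the 4 subtypes, with adjusted p between 0.0185 and 0.048. In SA, ANH and RES that call ended without the filter on low counts (adjusted p = 0.0517, 0.0733 and 0.0619).

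In the ER, Hspa5 (BiP), the master chaperone of that compartment, was lower in SA:ANH, ANH and RES. It had 381.7, 403.3 and 436.1 CPM in SA, 322.8, 339.6 and 376.9 CPM in SA:ANH, 342.7, 360.1 and 417.4 CPM in ANH, 366.6, 375.1 and 398.7 CPM in RES, and 412.4, 447.6 and 451.8 CPM in NS. SA:ANH and RES lay wholly below NS, and the highest ANH library and the upper SA libraries reached into it. The log2 fold change was -0.35 ± 0.04 in SA:ANH (adjusted p = 1.35e-07), -0.24 ± 0.04 in ANH (0.000382), -0.20 ± 0.04 in RES (0.00307) and -0.11 ± 0.04 in SA, which did not pass (0.0939). With DESeq2 the SA value of -0.12 passed (adjusted p = 0.031). On a list of 11 ER-resident members (Hspa5, Hspa13, Hsp90b1, Dnajb9, Dnajb11, Dnajb12, Dnajb14, Dnajc1, Dnajc3, Dnajc10 and Dnajc25), Hspa5 was the only one called in IP against NS. Beside this stand the shares of all genes called, 16.6% in SA, 19.7% in SA:ANH, 7.4% in ANH and 4.36% in RES. Dnajc14, a DnaJ of the ER membrane that is not on that list, fell in SA and ANH. Dnajb9 and Dnajc3, which the unfolded protein response induces, ranged over -0.15 to 0.13 and -0.22 to -0.10 and passed in none.

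**Figure D4:**
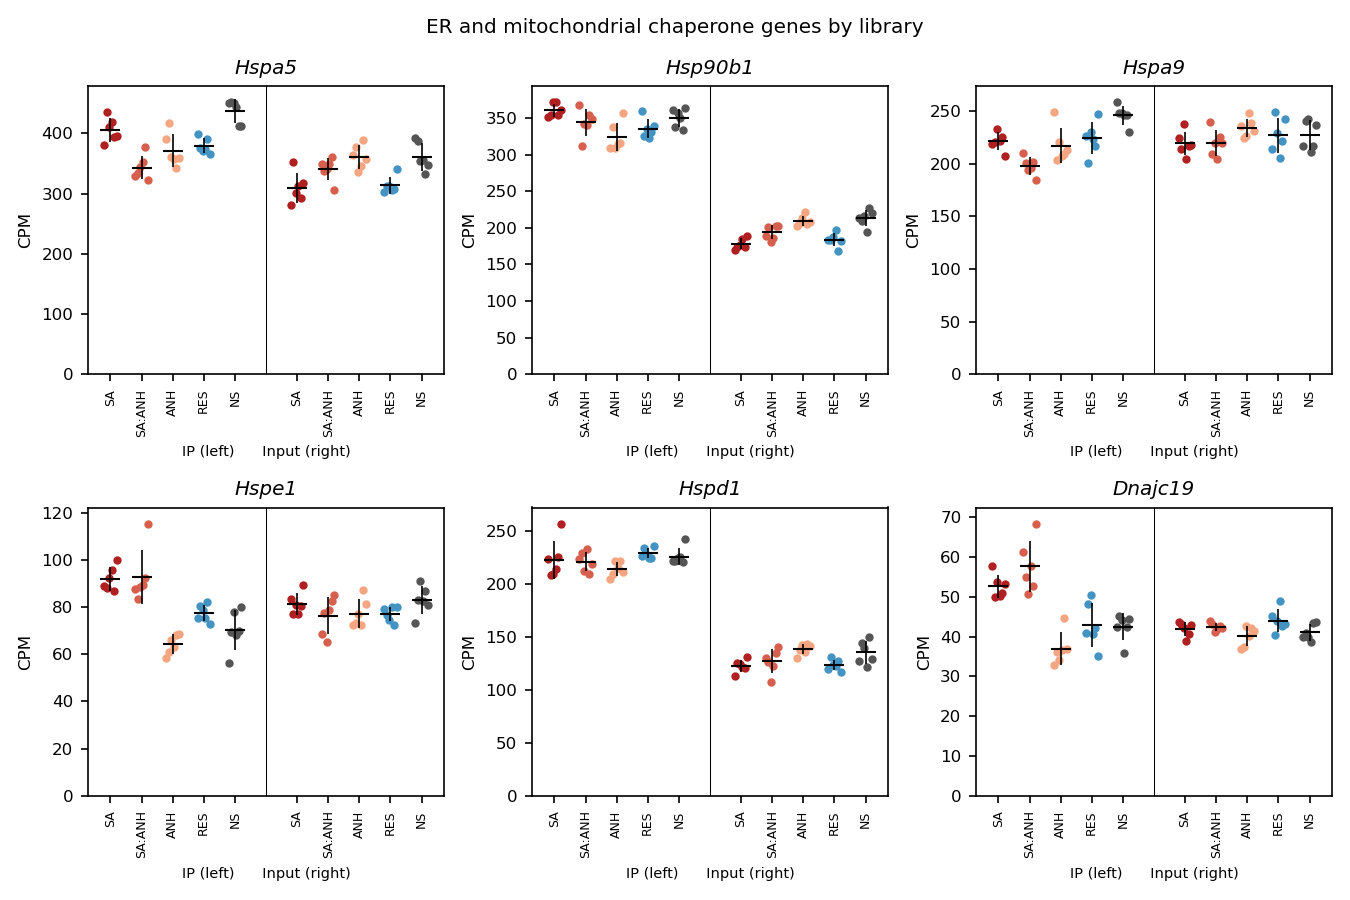
CPM in each library (points) with the mean and SD (black) for chaperone genes of the ER (Hspa5, Hsp90b1) and mitochondria (Hspa9, Hspe1, Hspd1, Dnajc19), with IP left and Input right in each panel, each fraction scaled by itself. In IP, Hspa5 and Hspa9 are lowest in SA:ANH, Hspe1 and Dnajc19 are above NS in all SA and SA:ANH libraries, and Hspd1 stays within 204.8 to 256.6 CPM in all groups.

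The mitochondrial genes moved in both directions. Hspe1 (HSP10) had 86.9, 90.75 and 100.1 CPM in SA, 83.41, 89.06 and 115.4 CPM in SA:ANH, 58.28, 64.61 and 68.84 CPM in ANH, 73.08, 77.17 and 82.15 CPM in RES, and 56.29, 69.71 and 80.24 CPM in NS. All SA and SA:ANH libraries lay above NS, with log2 fold changes of 0.39 ± 0.07 (adjusted p = 0.000144) and 0.40 ± 0.07 (6.38e-05), while ANH at -0.13 ± 0.07 and RES at 0.14 ± 0.07 did not pass. Hspd1 (HSP60), which shares its promoter region with Hspe1 and forms the chaperonin with it, was between -0.08 and 0.02 and passed in none. Dnajc19, part of the motor that imports protein into mitochondria, had 50.1 to 57.67 CPM in SA, 50.71 to 68.4 CPM in SA:ANH, 32.97 to 44.82 CPM in ANH, 35.22 to 50.58 CPM in RES and 35.95 to 45.27 CPM in NS. It rose by 0.31 ± 0.08 in SA (adjusted p = 0.00851) and by 0.44 ± 0.08 in SA:ANH (0.000144), again with no overlap with NS. Hspa9 (mortalin), the HSP70 that drives this motor, fell, at -0.15 ± 0.05 in SA (0.0187), -0.31 ± 0.05 in SA:ANH (3.43e-06) and -0.18 ± 0.05 in ANH (0.011), and RES at -0.14 ± 0.05 did not pass. It had 184.5 to 210.4 CPM in SA:ANH, against 230.4 to 258.3 CPM in NS, with no overlap. Dnajc15, a relative of Dnajc19 in the inner membrane, fell in ANH, at -0.23 ± 0.06 (0.00893), with 61.42 to 73.37 CPM in ANH and 69.53 to 83.43 CPM in NS. Dnajc30, of the inner membrane as well, rose in SA:ANH by 0.17 ± 0.05 (0.0115).

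Of the remaining DnaJ genes, Dnajc8 and Dnajc2 rose in both SA and SA:ANH, Dnajc17 in SA, Dnajc21 in SA:ANH and ANH, and Dnajc4 in SA:ANH. Dnajc8, a spliceosome-associated DnaJ, had 197.3 to 223 CPM in SA, 188.2 to 225 CPM in SA:ANH, 171.8 to 189.3 CPM in ANH, 169.8 to 190.9 CPM in RES and 154.6 to 177 CPM in NS. Its log2 fold change was 0.34 ± 0.04 in SA (adjusted p = 4.18e-07) and 0.30 ± 0.04 in SA:ANH (3.33e-06), with no overlap with NS. Dnajc17, also linked to splicing, rose in SA by 0.38 ± 0.12 (0.0265), a call that ended without that filter (0.0556). Dnajc2 rose by 0.38 ± 0.10 in SA (0.00412) and by 0.30 ± 0.10 in SA:ANH (0.0232), and in SA:ANH the call ended without replicate 6 (0.0622). Dnajc21 had 24.72 to 32.5 CPM in SA, 32.14 to 41.75 CPM in SA:ANH, 29.37 to 33.16 CPM in ANH, 22.37 to 27.71 CPM in RES and 20.92 to 28.35 CPM in NS. It rose by 0.57 ± 0.08 in SA:ANH (1.89e-06) and by 0.35 ± 0.08 in ANH (0.00507), in both with no overlap with NS. Dnajc4 rose in SA:ANH by 0.30 ± 0.10 (0.0298), which ended without replicate 6 (0.0662).

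Falling DnaJ genes were fewer. Dnaja4, a cytosolic DnaJ, was at -0.30 ± 0.06 in SA (0.000986), with 94.59 to 112.3 CPM in SA and 115.7 to 140.3 CPM in NS, and at -0.20 ± 0.06 in SA:ANH (0.0248), which ended without replicate 6 (0.0597). Dnajc14, an ER-membrane DnaJ, was at -0.20 ± 0.05 in SA (0.00993) and -0.21 ± 0.05 in ANH (0.015). The DnaJ genes of the synaptic vesicle cycle, Dnajc5 (cysteine string protein) and Dnajc6 (auxilin, which recruits Hspa8 to clathrin), were between -0.09 and 0.10 and passed in none of the 4. Dnajb1 was between -0.03 and 0.09 and passed in none. Hspb11, a subunit of the ciliary transport complex, rose by 0.35 ± 0.12 in SA (0.0414) and 0.38 ± 0.12 in SA:ANH (0.0214), both lost without the filter (0.133 and 0.0903). Hspb3, named after its values were seen, had 2.431 to 4.919 CPM in SA:ANH and 0.6261 to 1.547 CPM in NS (1.58 ± 0.36, adjusted p = 0.00134).

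The 13 members known as HSF1 targets were called in both directions. They were Hspa1a, Hspa1b, Hspa8, Hsph1, Hspa4l, Hsp90aa1, Hsp90ab1, Hspd1, Hspe1, Hspb1, Dnaja1, Dnajb1 and Dnajb4. In SA and again in SA:ANH, 2 of the 13 rose (Hsp90aa1 and Hspe1) and 4 fell (Hspa1a, Hspa1b, Hsph1 and Hspa4l), with a median of -0.03 in either, against 0.02 and 0.01 over all genes. In ANH, 0 rose and 4 fell (Hspa1a, Hspa8, Hspa4l and Hsp90ab1), and in RES 0 rose and 2 fell (Hsph1 and Hspa4l). Beside these stand the shares of all genes, 9.39% higher and 7.2% lower in SA, 11.3% and 8.45% in SA:ANH, 3.02% and 4.37% in ANH, and 2.25% and 2.11% in RES. Of the 4 genes with a 3-unit match, among the 59 members whose promoter was read, Hspe1 rose in SA and SA:ANH and Hsph1 fell in both. Hsp90aa1, Hsp90ab1 and Hspa8 were not among those 59. The others, Hspd1 and Dnajb6, passed in no subtype against NS. The part of this element in the differences was not tested.

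The subtypes were also set against RES and against each other in IP, where genes outside the core chaperones are named after their values were seen. Against RES, 7 members were higher and 3 lower in SA (14.9%), beside 11.6% of all genes, 6.83% higher and 4.8% lower. In SA:ANH, 6 were higher and 4 lower (14.9%), beside 13.8% of all genes, 8.21% higher and 5.61% lower. In ANH, 2 were higher and 7 lower (13.4%), beside 9.21% of all genes, 3.78% higher and 5.43% lower. Hsp90aa1 was higher than in RES by 0.29 ± 0.04 in SA (adjusted p = 1.07e-06) and 0.19 ± 0.04 in SA:ANH (0.000488). Hspa2 was lower than in RES, at -0.65 ± 0.08 in SA (5.11e-07), -0.28 ± 0.08 in SA:ANH (0.0171) and -0.32 ± 0.08 in ANH (0.00919). Hsph1 was higher in ANH than in RES by 0.25 ± 0.04 (0.000134), with 380.9 to 416.5 CPM in ANH and 306.7 to 358.1 CPM in RES. Hspa8 was higher than in RES in SA by 0.16 ± 0.03 (0.000985) and lower in ANH, at -0.15 ± 0.03 (0.00315).

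SA and ANH were further apart. In SA against ANH, 15 members were higher and 6 lower (31.3%), beside 23% of all genes, 12.8% higher and 10.2% lower. Hspa8 was higher in SA by 0.32 ± 0.03 (adjusted p = 8.70e-09), Hsp90aa1 by 0.32 ± 0.04 (4.94e-08), Hsp90ab1 by 0.18 ± 0.03 (1.30e-06) and Hspe1 by 0.52 ± 0.07 (9.87e-07), each with no overlap between the groups. Hsph1 was lower in SA, at -0.33 ± 0.04 (3.20e-07). In SA:ANH against ANH, 12 were higher and 3 lower (22.4%), beside 17.9% of all genes, 10.8% higher and 7.03% lower. Among them were Hspe1 at 0.53 ± 0.07 (6.74e-07) and Dnajc19 at 0.64 ± 0.08 (3.76e-07). In SA:ANH against SA, 3 were higher and 3 lower (8.96%), beside 9.53% of all genes, 4.89% higher and 4.64% lower. These were Hspa2 at 0.37 ± 0.08 (0.00184), Dnajc21 at 0.42 ± 0.08 (0.000374) and Hsph1 at 0.13 ± 0.04 (0.0432) on the high side, and Hspa5 at -0.24 ± 0.04 (0.000129), Hspa9 at -0.16 ± 0.05 (0.0218) and Hspa8 at -0.14 ± 0.03 (0.00418) on the low side. Dnajc7 was at -0.18 ± 0.05 in ANH against RES (0.00679), at 0.16 ± 0.05 in SA:ANH against ANH (0.00798) and at 0.14 ± 0.05 in SA against ANH (0.0194). This gene overlaps with Cnp, an oligodendrocyte gene, on the opposite strand. Whether the counts used strand is not stated in the labels, so reads from the stretch where Dnajc7 and Cnp overlap may have been counted for either gene.

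In the Input fraction, 6 members passed against NS in SA, 3 in SA:ANH, 1 in ANH and 7 in RES, where 16, 18, 10 and 5 had passed in IP. In SA, 0 were higher and 6 lower (8.82% of 68), beside 2.83% of all 18170 genes tested, 1.23% higher and 1.6% lower. In RES, 1 was higher and 6 lower (10.3%), beside 3.23% of all genes, 1.96% higher and 1.27% lower. In SA:ANH, 1 was higher and 2 lower (4.41%), beside 5.65% of all genes, 2.54% higher and 3.1% lower. In ANH, 0 were higher and 1 was lower (1.47%), beside 2.62% of all genes, 1.57% higher and 1.05% lower. Against NS in Input, 0 members rose in SA and 0 in ANH by edgeR at the adjusted threshold, where an unadjusted p under 0.05 counted 2 higher in SA and 4 higher in ANH. Among the 5 groups, 13 of 68 members differed (19.1%, beside 12.9%). Marker sums moved in Input too. Red blood cell markers summed to 1464 to 1621 CPM in SA, 1447 to 1614 CPM in SA:ANH, 1497 to 1582 CPM in ANH, 1183 to 1401 CPM in RES and 867.1 to 940.3 CPM in NS. Oligodendrocyte markers summed to 3382 to 3551 CPM in SA, 3027 to 3224 CPM in SA:ANH, 4786 to 4938 CPM in ANH, 4092 to 4259 CPM in RES and 2785 to 2957 CPM in NS. Inhibitory neuron markers in SA, SA:ANH and ANH (1149 to 1255 CPM over these groups) lay below NS (1283 to 1347 CPM), and astrocyte markers did so in SA and ANH, microglial and endothelial ones in SA. Their part in the Input values was not tested.

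The Input falls in SA and RES included chaperones of the ER and of the cytosol. Hsp90b1 had lowest, median and highest values of 170.1, 175.5 and 189.2 CPM in SA, 181, 195.4 and 202.7 CPM in SA:ANH, 203.1, 207.6 and 222.1 CPM in ANH, 168.9, 183 and 196.9 CPM in RES, and 194.8, 214.9 and 227.4 CPM in NS. SA lay wholly below NS, and the other groups overlapped with it. The log2 fold change was -0.26 ± 0.04 in SA (adjusted p = 3.82e-05), -0.14 ± 0.04 in SA:ANH (0.0284), -0.03 ± 0.04 in ANH and -0.22 ± 0.04 in RES (0.000597). The SA:ANH call ended without the filter on low counts (0.0807). Hspa5 was at -0.22 ± 0.05 in SA (0.00364) and -0.20 ± 0.05 in RES (0.00902), with 281.2 to 352.3 CPM in SA, 302.3 to 341.8 CPM in RES and 333.4 to 391.9 CPM in NS. Hsp90aa1 had 562, 583.7 and 642.2 CPM in SA, 620.7, 649.1 and 662.9 CPM in SA:ANH, 619.7, 636.2 and 696 CPM in ANH, 584.2, 596.7 and 646.4 CPM in RES, and 668.1, 674.7 and 704.9 CPM in NS. It fell in SA, at -0.20 ± 0.03 (9.86e-05), and in RES, at -0.17 ± 0.03 (0.00131), and in both of them, as in SA:ANH, every library lay below NS. Hsph1 was at -0.19 ± 0.04 in SA (0.0106) and -0.16 ± 0.04 in RES (0.0424).

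The remaining Input calls were spread over several families. Hspa4l at -0.25 ± 0.07 (0.0292) and Dnajb4, a cytosolic DnaJ, at -0.35 ± 0.10 (0.0417) fell in SA, with 20.89 to 28.05 CPM of Dnajb4 in SA and 27.66 to 32.06 CPM in NS. Dnaja1 fell in RES, at -0.19 ± 0.05 (0.022), as did Hspb1, at -0.55 ± 0.16 (0.0453), with 4.63 to 9.572 CPM in RES and 7.855 to 11.53 CPM in NS. Hsp90ab1 fell in ANH, at -0.11 ± 0.02 (0.0051). Dnajc11, of the mitochondrial membrane, rose in SA:ANH by 0.19 ± 0.05 (0.03) and in RES by 0.21 ± 0.05 (0.0199). Summed Hspa1a and Hspa1b averaged 43.1 ± 5.07 CPM in SA, 46.2 ± 5.56 CPM in SA:ANH, 44.7 ± 5.79 CPM in ANH, 45.1 ± 1.96 CPM in RES and 49.1 ± 2.66 CPM in NS (SD, n = 6 each), with exact permutation p adjusted over the 8 comparisons of 0.045, 0.253, 0.109 and 0.039 for the subtypes in this order.

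Against RES in Input, 1 member was lower in SA (Dnajc30, -0.17 ± 0.04, adjusted p = 0.0452), 1.47% of members beside 1.1% of all genes, 0.44% higher and 0.66% lower. In ANH, 4 were higher and 1 lower (7.35%), beside 4.22% of all genes, 2.48% higher and 1.73% lower. These were Hsp90b1 at 0.19 ± 0.04 (0.00267), Hsph1 at 0.20 ± 0.04 (0.00645), Hspa5 at 0.20 ± 0.05 (0.00823) and Dnaja1 at 0.21 ± 0.05 (0.00853), with Hsp90ab1 at -0.10 ± 0.02 (0.0101). In SA:ANH, 0 members passed against RES with edgeR, beside 0.693% of all genes, 0.319% higher and 0.374% lower, while 9 had an unadjusted p under 0.05 and DESeq2 called 1.

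Differences from NS were tested for being unlike in IP and Input, in the fit of all 60 libraries. They were unlike for 22 of 68 members (32.4%), beside 24.6% of all genes. Hsp90aa1 had the smallest adjusted p, 2.39e-09: in SA it was at 0.27 ± 0.04 in IP and -0.20 ± 0.03 in Input, and in SA:ANH at 0.17 ± 0.04 in IP and -0.07 ± 0.03 in Input. Hspa8 followed at 2.90e-07, with -0.26 ± 0.03 in IP and -0.00 ± 0.03 in Input for ANH. For Hspa5 (4.22e-06), SA:ANH was at -0.35 ± 0.04 in IP and -0.09 ± 0.05 in Input, and ANH at -0.24 ± 0.04 in IP and 0.00 ± 0.05 in Input. For Hsp90b1 (4.72e-06), SA was at 0.04 ± 0.04 in IP and -0.26 ± 0.04 in Input. For Hspe1 (1.52e-05), SA:ANH was at 0.40 ± 0.07 in IP and -0.12 ± 0.06 in Input. Hsph1 and Hspa4l, lower in SA in both fractions, were not among the 22.

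Genes that work with the members were read from lists of cochaperones, chaperonins and ER factors. Of 27 HSP70 and HSP90 cochaperones tested in IP, 6 were higher and 2 lower in SA, 1 and 3 in SA:ANH, 1 and 4 in ANH, and 0 and 1 in RES, beside 9.39% higher and 7.2% lower of all genes in SA, 11.3% and 8.45% in SA:ANH, 3.02% and 4.37% in ANH, and 2.25% and 2.11% in RES. Stip1 (HOP), which links HSP70 to HSP90, was at -0.15 ± 0.04 in SA (adjusted p = 0.0138), -0.31 ± 0.04 in SA:ANH (1.23e-06), -0.20 ± 0.04 in ANH (0.00217) and -0.18 ± 0.04 in RES (0.0128). Fkbp5, the glucocorticoid-induced HSP90 cochaperone, was at -0.63 ± 0.14 in SA (0.00129), -0.72 ± 0.14 in SA:ANH (0.000179) and -0.46 ± 0.14 in ANH (0.035), with means of 17.9 ± 3.77, 16.8 ± 3.12 and 20.1 ± 4.12 CPM in these groups and 27.6 ± 2.70 CPM in NS (SD, n = 6 libraries). Bag1, an exchange factor for HSP70, rose by 0.17 ± 0.04 in SA (0.00292) and 0.26 ± 0.04 in SA:ANH (9.70e-06). Of 5 heat shock factors and regulators tested, Hsbp1, an inhibitor of HSF1, rose by 0.31 ± 0.03 in SA (1.87e-08), 0.29 ± 0.03 in SA:ANH (5.82e-08) and 0.14 ± 0.03 in RES (0.0127). Hsf1 itself fell, at -0.33 ± 0.09 in SA:ANH (0.00641) and -0.44 ± 0.09 in RES (0.00202).

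Of 14 genes of the cytosolic chaperonin and prefoldin, which folds actin and tubulin, 7 rose and 0 fell in SA (9.39% and 7.2% of all genes), and 5 rose and 0 fell in SA:ANH (11.3% and 8.45%). Prefoldin subunits led in both: Pfdn5 was at 0.47 ± 0.07 in SA (adjusted p = 2.45e-06) and 0.66 ± 0.07 in SA:ANH (2.48e-09), and Pfdn6 at 0.38 ± 0.05 in SA (1.80e-07) and 0.41 ± 0.05 in SA:ANH (2.44e-08). In ANH, 0 rose and 2 fell (3.02% and 4.37% of all genes), and in RES 0 passed with edgeR, where 3 had an unadjusted p under 0.05, all of them higher. Of 23 ER chaperones and unfolded protein response genes, 1 rose and 3 fell in SA (9.39% and 7.2% of all genes), 1 rose and 7 fell in SA:ANH (11.3% and 8.45%), 0 rose and 3 fell in ANH (3.02% and 4.37%), and 2 rose and 3 fell in RES (2.25% and 2.11%). In SA:ANH the median was -0.16, against 0.01 over all genes, with Calr (calreticulin) at -0.35 ± 0.04 (3.21e-09), Pdia4 at -0.48 ± 0.08 (2.15e-05) and Canx (calnexin) at -0.22 ± 0.04 (0.000142), beside Hspa5 at -0.35 among the members. Selenos, of ER-associated degradation, rose in SA:ANH by 0.48 ± 0.07 (2.98e-06). In Input the same 23 gave 0 rises by edgeR in each subtype (at an unadjusted p under 0.05, 3 higher in RES and 0 in each of the others) and 2, 2, 0 and 1 falls in SA, SA:ANH, ANH and RES, beside 1.6%, 3.1%, 1.05% and 1.27% of all genes lower. Canx fell there, at -0.21 ± 0.04 in SA (0.0027), -0.19 ± 0.04 in SA:ANH (0.00515) and -0.20 ± 0.04 in RES (0.00467).

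Gene length, as the table gives it, was set beside the calls in IP. In SA:ANH, the 10 that rose had a median length of 1749 bases and the 8 that fell 3360.5 bases, and in SA the 7 that rose had 1837 bases and the 9 that fell 3049 bases. As a description across genes, which are not independent replicates, Spearman's rho of length with the log2 fold change in SA:ANH was -0.28 over 67 members and -0.22 over 13852 protein-coding genes tested. In SA it was -0.13 over members and -0.18 over those genes, in ANH -0.024 and 0.044, and in RES -0.37 and -0.14. The part of length in the members' differences was not tested.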

How the data were processed

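The deposited table holds 1 expected count per gene and library, as the authors deposited it; 88.4% of its values were whole within 0.000001, and they were rounded here. Per the submitters' processing notes the tools were Trimmomatic 0.32, TopHat2 2.0.13 and Bowtie2 2.2.3, with mm10; neither the counting program nor its strand setting is stated there. Counts were tested with edgeR 4.0.16 (R 4.3.3): TMM scaling, filterByExpr with a minimum count of 10, quasi-likelihood test, Benjamini-Hochberg adjustment over all genes at 0.05. One fit held the 30 IP libraries, one the 30 Input libraries and one all 60, so IP and Input CPM in the subtype comparisons are each on their own fraction's scale. The biological coefficient of variation was 23.7% in IP and 18.6% in Input. Alternatives were DESeq2's size factors, DESeq2 1.42.0, no filter, only the libraries compared, a replicate block and, added after seeing the data, leaving out SA:ANH IP replicate 6. The test was checked on simulated data. Values were named for members that passed and reached 10 CPM (up to 10 rises and 10 falls per comparison), for a list of core members, and for up to 4 genes per pathway list. Members and lists were chosen with earlier results of these data known. Values of 1 member are not reported here, though counts of members include it. Many gene bodies overlap with a neighbour's, among them Hspe1 with Hspd1, Dnajc19 with Fxr1, Dnajc30 with Bud23, Hspb2 with Cryab and Hspa12a with Eno4, and such counts are uncertain.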

Additional observations from a re-analysis of the deposited data

Results flagged for a closer look

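The differences from NS were unlike in IP and Input for 22 members, by edgeR's quasi-likelihood test of the interaction terms with Benjamini-Hochberg adjustment over all genes, beside 24.6% of all genes tested. The values of 21 are given. The adjusted p was 2.39e-09 for Hsp90aa1, 2.9e-07 for Hspa8, 4.22e-06 for Hspa5, 4.72e-06 for Hsp90b1, 1.52e-05 for Hspe1 and 3.72e-05 for Dnajc19. Among the next genes it was 0.00136 for Dnajc15, 0.00325 for Dnajc21, 0.00607 for Hspa9, 0.00631 for Hspa2, 0.00951 for Dnajc7, 0.019 for Dnajc8 and 0.0196 for Dnajc9. For the last it was 0.0231 for Hspb11, 0.0231 for Hspd1, 0.0274 for Dnajc11, 0.0294 for Hspa12a, 0.03 for Dnajc14, 0.0441 for Hspb3, 0.0443 for Hspa1b and 0.049 for Hspb6, values close to the threshold.

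Single libraries stood apart from the other 5 of their group in 33 of 425 groups of 6 examined over 43 members, where chance flags about 1 group in 20. In the SA IP group these were Dnajb14 in replicate 6 (86.01 CPM, nearest other 77.17 CPM), Dnajc21 in replicate 1 (32.5 CPM, nearest other 26.99 CPM), Hspa13 in replicate 2 (89.36 CPM, nearest other 78.46 CPM) and Hspa2 in replicate 1 (54.66 CPM, nearest other 73.22 CPM). Further ones there were Hspa4 in replicate 1 (98.66 CPM, nearest other 82.94 CPM), Hspa8 in replicate 1 (1798 CPM, nearest other 2089 CPM) and Hspd1 in replicate 6 (256.6 CPM, nearest other 225.3 CPM). The SA:ANH IP group held Dnajc3 in replicate 1 (34.75 CPM, nearest other 41.01 CPM), Dnajc6 in replicate 6 (90.43 CPM, nearest other 75.32 CPM), Hsp90aa1 in replicate 6 (2128 CPM, nearest other 1851 CPM) and Hspa1b in replicate 4 (28.87 CPM, nearest other 22.03 CPM). Further ones there were Hspb11 in replicate 4 (14.96 CPM, nearest other 11.7 CPM) and Hspe1 in replicate 6 (115.4 CPM, nearest other 92.42 CPM). Among ANH IP libraries there were Dnajc19 in replicate 5 (44.82 CPM, nearest other 36.87 CPM), Hspa4l in replicate 4 (153.9 CPM, nearest other 136.1 CPM) and Hspa9 in replicate 1 (248.8 CPM, nearest other 220.4 CPM). The NS IP group had Dnajb4 in replicate 4 (41.98 CPM, nearest other 47.7 CPM), Dnajc19 in replicate 4 (35.95 CPM, nearest other 42.41 CPM), Hspa4 in replicate 6 (95.45 CPM, nearest other 79.52 CPM) and Hspa8 in replicate 6 (1881 CPM, nearest other 1996 CPM). Further ones there were Hspd1 in replicate 6 (241.8 CPM, nearest other 225 CPM). In Input, the SA group gave Dnaja4 in replicate 2 (99.97 CPM, nearest other 87.81 CPM), Dnajc17 in replicate 3 (18.47 CPM, nearest other 16.84 CPM), Dnajc3 in replicate 5 (24.54 CPM, nearest other 30.12 CPM) and Dnajc8 in replicate 2 (117 CPM, nearest other 126.7 CPM). SA:ANH Input gave Dnajb14 in replicate 5 (43.83 CPM, nearest other 35.42 CPM) and Hspa12a in replicate 5 (49.94 CPM, nearest other 60.21 CPM). ANH Input gave Dnajc12 in replicate 1 (15.84 CPM, nearest other 20.91 CPM). RES Input gave Hspa5 in replicate 6 (341.8 CPM, nearest other 312.6 CPM). Last, NS Input gave Dnajb1 in replicate 3 (92.26 CPM, nearest other 105.7 CPM), Dnajc2 in replicate 1 (19.18 CPM, nearest other 15.31 CPM), Hsp90aa1 in replicate 3 (704.9 CPM, nearest other 681.4 CPM) and Hspa1a in replicate 2 (21.44 CPM, nearest other 26.13 CPM). Replicate 6 of SA:ANH IP is named here for Hsp90aa1, Hspe1 and Dnajc6. Of all libraries it deviated most from its group's mean, over tested genes above the median level. Without it Hsp90aa1 and Hspe1 kept their calls in SA:ANH against NS.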

How the results depend on the processing

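Of 238 values of named genes, 215 kept their direction and their side of the threshold under every alternative run, as did 77 of the 94 called ones. The exceptions among genes are given beside them or follow here. Without the filter, Dnajb12 in IP against Input (adjusted p = 0.0546), Hsph1 in RES Input (0.0785), Hspb1 in RES Input (0.0785) and Dnajb4 in SA Input (0.0553) missed the threshold. With only the libraries compared, Dnajc11 in SA:ANH Input did (0.0664). DESeq2 called Hsp90b1 lower in ANH IP (0.0418). No called value changed sign, and 28 of 1323 values changed sign while passing in neither. The calls that ended in IP, given beside their genes above, also touch the counts there. Among the small counts in Input, these moved. ANH against NS gave 2 members with DESeq2 and 2 with a replicate block, in place of 1. SA against RES gave 0 with DESeq2's size factors in edgeR, without the filter and with only the libraries compared, in place of 1. SA:ANH against RES gave 1 with DESeq2, in place of 0. The cause was not tested.

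The labels do not say what a replicate number stands for, and whether the numbers pair libraries is not settled by the data. Deviations of libraries with the same number in different groups had a median correlation of 0.0156 in IP and 0.0377 in Input (different numbers, -0.00366 and -0.00766). The lowest values were -0.0635 and -0.171, and both medians lay below 0.1. Between IP and Input libraries of the same group, the median correlation was 0.0388 for equal numbers and -0.0109 for different numbers. Of 30 IP libraries, 11 matched best with the Input library of their own number, where a random choice among 6 gives 5. With the replicate number as a block, Hspa1a in ANH IP (0.0587) and Hspa4l in SA IP (0.0566) missed the threshold, Hspa8 in SA:ANH Input passed as higher (0.0411), and the other counts stayed within 1.5 times.

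The 6 members with the fewest counts were not testable at this depth in either fraction.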
